A study of Mus musculus with 3 samples.

Results

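Metallothioneins and antioxidant enzymes protect the liver from free metal ions and reactive oxygen, and 10 of their genes are described here across the livers of mice fed 3 diets. The genes were taken by name, and a probe set, a group of array probes designed against 1 transcript, was assigned to them where its annotated symbol was Mt1, Mt2, Cat, Sod1, Sod2, Gpx1, Hmox1, Nqo1, Txnrd1 or Prdx1. Of 10833 probe sets with a single symbol, which cover 8251 genes, 11 belonged to 9 of these genes. Both probe sets of Prdx1 were annotated jointly to Gm21399, a pseudogene, so that no level could be assigned to Prdx1 alone. They are described apart and enter no count.

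All mice were male homozygous apoE knockouts on a mixed C57BL/6J and OLA129 background, a model with high plasma cholesterol, and started the diets at 3 months of age. The t10,c12-CLA group (9 mice) and the c9,t11-CLA group (10 mice) received 1.0% by weight of that isomer of conjugated linoleic acid (CLA), and the control group (10 mice) an equal amount of linoleic acid, for 12 weeks. Per the design text the diets were semi-purified, with 30% of the energy as fat, while the sample labels speak of a western diet. Liver RNA was hybridised to 1 array for each diet, the labels do not say whether from 1 mouse or a pool, and no wild-type liver was included. Each diet is thus represented by a single array, so the differences below carry no replicate check, no test and no p-value.

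Metallothioneins are small cysteine-rich proteins that bind zinc and copper. In liver, Mt1 and Mt2 are transcribed at a high rate when zinc rises, through the zinc-sensing factor MTF1, and during inflammation and under glucocorticoids. Superoxide dismutases turn superoxide into hydrogen peroxide, which catalase, glutathione peroxidases and peroxiredoxins remove. The transcription factor NRF2 (Nfe2l2) raises Nqo1, Hmox1, Txnrd1 and other enzymes in response to electrophiles and oxidants.

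The sequences before Mt1 and Mt2 are shown because these genes, neighbours on mouse chromosome 8, had the largest differences among the genes described here. MTF1 binds metal response elements, whose core was searched as TGCACNC or TGCGCNC on both strands, with every match counted even where matches overlap. The lines give the 250 bases before the RefSeq transcript start on the plus strand of GRCm38.p6, chr8:94178839-94179088 for Mt1 and chr8:94172368-94172617 for Mt2, with the matches in capitals.
Mt1: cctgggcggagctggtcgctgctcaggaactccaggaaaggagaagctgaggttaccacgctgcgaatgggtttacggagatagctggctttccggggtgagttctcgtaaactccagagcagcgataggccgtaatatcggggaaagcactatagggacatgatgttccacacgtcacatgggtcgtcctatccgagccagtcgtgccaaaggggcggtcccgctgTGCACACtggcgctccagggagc
Mt2: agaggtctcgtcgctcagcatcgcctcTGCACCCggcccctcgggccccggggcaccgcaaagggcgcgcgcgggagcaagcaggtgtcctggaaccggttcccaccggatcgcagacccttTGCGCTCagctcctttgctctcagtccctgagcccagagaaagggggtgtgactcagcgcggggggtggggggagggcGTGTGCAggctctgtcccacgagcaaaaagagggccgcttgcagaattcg
In the first 50 bases after the start Mt1 held another 2 matches, on chr8:94179091-94179115, and Mt2 held 1, on chr8:94172622-94172628.
Mt1 after the start: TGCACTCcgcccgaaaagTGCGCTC
Mt2 after the start: GTGCGCA
The whole window of 300 bases thus held 3 matches for Mt1 and 4 for Mt2. Of 32851 such RefSeq windows, 1.97% held 3 or more matches and 0.517% held 4 or more. Windows were found for 9 of the 10 genes, and none of the other windows held a match. The core of the antioxidant response element, searched as TGACNNNGC on both strands, was found 1 time each in the windows of Mt2, Sod1 and Prdx1 and in 1 of 3 windows of Txnrd1, against 12.4% of all windows with at least 1 match. A match describes the letters and does not show that a factor binds there. Before and after refer to the RefSeq start alone, and whether transcription in liver begins there was not examined.

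Both metallothioneins were more than 2-fold higher on c9,t11-CLA than on control. None of the enzymes that could be compared, which leaves out Nqo1 and Prdx1, differed by 2-fold from control on either CLA array. On the t10,c12-CLA array Mt1 and Mt2 lay near control, and 1 of 2 catalase probe sets was lower. Signals are the deposited MAS5 values, hybridisation intensities on a linear scale. Low signals were set aside with a floor of 490.3, the median over every signal of the 3 arrays, and a probe set counted as measured in a comparison when it was above the floor on both arrays. Of the 11 probe sets, 9, from 8 genes, were above the floor on all 3 arrays, and both probe sets of Nqo1 were below it on all 3.

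Mt1 gave a signal of 47374 on t10,c12-CLA, 93364.5 on c9,t11-CLA and 44111 on control. The c9,t11-CLA array stood apart, with a log2 difference from control of 1.08, or 2.12-fold. The t10,c12-CLA array differed from control by 0.10 on the log2 scale. Mt2, the other broadly expressed metallothionein, gave 39806 on the t10,c12-CLA, 74325 on the c9,t11-CLA and 32769 on the control array. Its order over the arrays was that of Mt1, with a log2 difference from control of 1.18 (2.27-fold) on c9,t11-CLA and 0.28 on t10,c12-CLA. Between the isomers the log2 difference of t10,c12-CLA over c9,t11-CLA was -0.98 for Mt1 and -0.90 for Mt2, short of 2-fold, and after quantile normalization it was -0.33 and -0.35.

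Probe sets of 1 gene give a technical measure of how far a single log2 difference can stray, since they read the same RNA. For each gene with a pair of measured probe sets or more, the brightest pair was taken. The SD of the difference between their log2 differences was divided by the square root of 2, to give the SD of a single log2 difference. This SD, called below the SD between probe sets of a gene, was 0.397 for t10,c12-CLA over control (566 pairs). It was 0.493 for c9,t11-CLA over control (529 pairs) and 0.497 for t10,c12-CLA over c9,t11-CLA (553 pairs). Among pairs with all signals at least 4 times the floor, a level the 9 measured probe sets also reach, it was 0.303, 0.39 and 0.371 in the same comparisons. The SD holds measurement error and probe design, not the variation between mice. A shift of an array that both probe sets of a pair share cancels out and is not in it either. As deposited, the c9,t11-CLA over control differences of Mt1 and Mt2 were larger than either SD, and those of t10,c12-CLA over control were smaller than both. After quantile normalization Mt1 stood at 0.43 on c9,t11-CLA over control, below the wider SD.

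**Figure D1:**
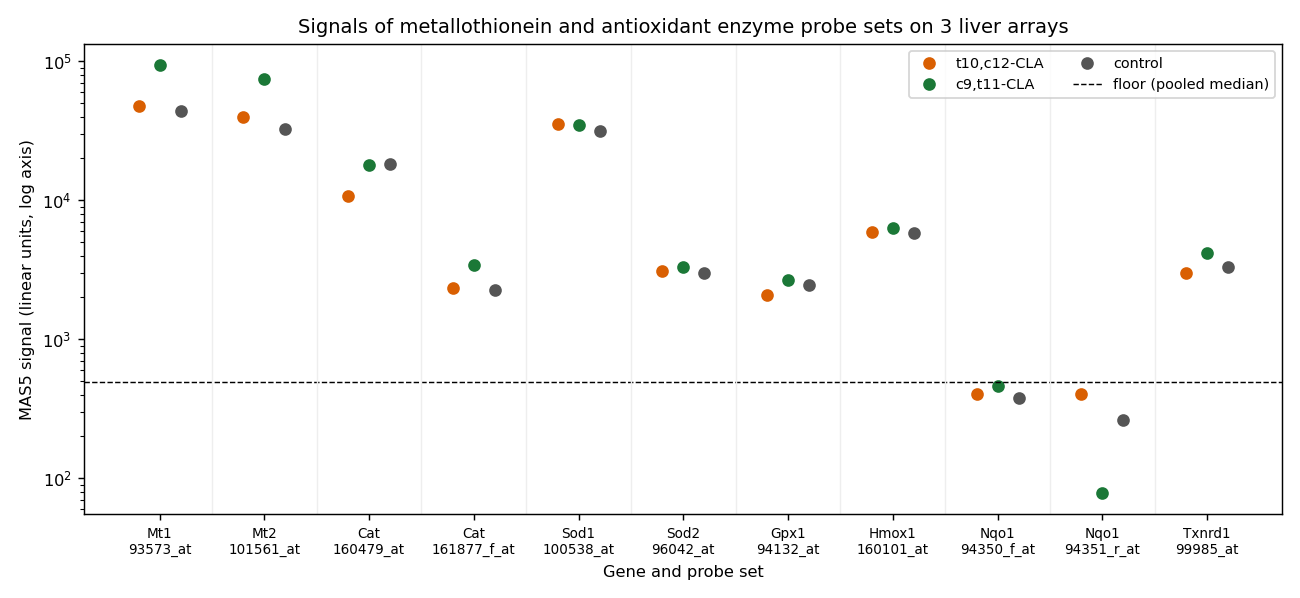
MAS5 signal on a log axis for each of the 11 probe sets, with 1 point for the t10,c12-CLA, c9,t11-CLA and control array and a dashed line at the floor of 490.3. Mt1 and Mt2 stand higher on c9,t11-CLA, at 93364.5 and 74325, than on the other arrays, the first Cat probe set is lowest on t10,c12-CLA at 10790, and both Nqo1 probe sets lie below the floor.

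The brightest signals of the c9,t11-CLA array were higher as a class, which touches both metallothioneins. On c9,t11-CLA 40 probe sets were brighter than the highest signal of the control array, 70778, while on t10,c12-CLA 1 was, at 71111. The ratios of 10 hybridisation control probe sets above the floor had a median of 1.14 and a highest value of 1.26 for t10,c12-CLA over control, and a median of 1.3 and a highest value of 2.12 for c9,t11-CLA over control. Among all 5480 measured probe sets 3.25% were at least 2-fold higher on c9,t11-CLA than on control. Among the 280 with a geometric mean of both signals of at least 20000 this share was 7.14%, and among the 107 with one of at least 40000 it was 12.1%, with a median log2 difference of 0.495 and 92 above 0. For t10,c12-CLA over control the median was -0.003 over 75 probe sets of that brightness, and 0 were 2-fold higher. These brightness limits were chosen after the data were seen. After quantile normalization, which gives the arrays the same distribution of signals, the log2 difference of c9,t11-CLA over control was 0.43 for Mt1 and 0.77 for Mt2, and with equal medians of the arrays it was 0.89 and 0.99. Neither gene was then 2-fold higher, though both kept the sign. Equal medians moved the median log2 difference of all measured probe sets by -0.178 in that comparison. The part of the array's bright end, and of the control probe sets' shift, in the difference was not tested.

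**Figure D2:**
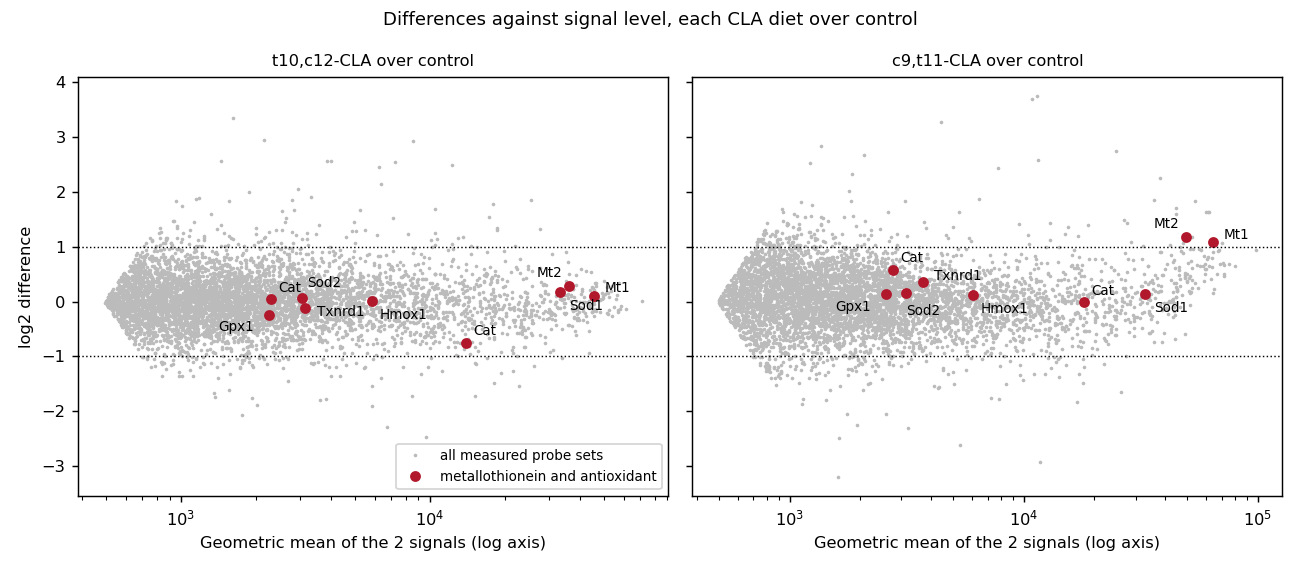
Log2 difference against the geometric mean of the compared signals (log axis), for t10,c12-CLA over control and c9,t11-CLA over control, with all measured probe sets in grey, the 9 measured probe sets in red and dotted lines at 2-fold. In c9,t11-CLA over control the grey points bend upwards at the bright end, where the median at 40000 and above is 0.495, and Mt1 at 1.08 and Mt2 at 1.18 lie in that stretch.

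The enzymes that dispose of superoxide were close to level. Sod1, the copper and zinc superoxide dismutase of the cytosol, gave 35402 on t10,c12-CLA, 34722 on c9,t11-CLA and 31426 on control. Its log2 difference from control was 0.17 on t10,c12-CLA and 0.14 on c9,t11-CLA. Sod2, the manganese enzyme of mitochondria, gave 3122, 3308 and 2981 on the t10,c12-CLA, c9,t11-CLA and control arrays. Its log2 difference from control was 0.07 on t10,c12-CLA and 0.15 on c9,t11-CLA. Each of these differences was smaller than either SD between probe sets of a gene, and so was that of t10,c12-CLA over c9,t11-CLA, at 0.03 for Sod1 and -0.08 for Sod2.

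Catalase, the peroxisomal enzyme that splits hydrogen peroxide, was read by 2 probe sets that differed in pattern. The first gave 10790 on t10,c12-CLA, 17965 on c9,t11-CLA and 18146 on control. The t10,c12-CLA array was the low one, 1.68-fold below control, a log2 difference of -0.75, larger than either SD between probe sets of a gene, and 257 of 5584 measured probe sets had a lower one. The other, whose suffix marks a design shared by similar sequences, gave 2327 on t10,c12-CLA, 3394 on c9,t11-CLA and 2265 on control. There the c9,t11-CLA array was the high one, with a log2 difference of 0.58 from control, and t10,c12-CLA stood at 0.04. Both probe sets had a lower signal on t10,c12-CLA than on c9,t11-CLA, with log2 differences of -0.74 and -0.54.

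Gpx1, the selenium-dependent glutathione peroxidase of the cytosol, gave 2066.5 on t10,c12-CLA, 2686 on c9,t11-CLA and 2457 on control. The t10,c12-CLA array was lowest, with a log2 difference of -0.25 from control, smaller than either SD between probe sets of a gene. Its difference of -0.38 from c9,t11-CLA was smaller than the SD over all pairs, 0.497, and just outside that of the brighter pairs, 0.371. The probe sets shared by Prdx1, a peroxiredoxin that reduces peroxides with thioredoxin, and the pseudogene Gm21399 disagreed. One gave 41710 on t10,c12-CLA, 30212 on c9,t11-CLA and 50103 on control, lowest on c9,t11-CLA. The other, also marked by its suffix as matching several transcripts, gave 34253 on t10,c12-CLA, 41774 on c9,t11-CLA and 33762.5 on control, highest on c9,t11-CLA. Their log2 differences of c9,t11-CLA over control were -0.73 and 0.31, so no direction can be given.

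The measured NRF2 targets among the genes described here differed little. Hmox1, the inducible haem oxygenase that frees iron from haem, gave 5862 on t10,c12-CLA, 6356 on c9,t11-CLA and 5838 on control. The 3 signals were nearly level, with a log2 difference from control of 0.01 on t10,c12-CLA and 0.12 on c9,t11-CLA. Txnrd1, the selenium-dependent thioredoxin reductase of the cytosol, gave 3009 on t10,c12-CLA, 4190 on c9,t11-CLA and 3284 on control. It was highest on c9,t11-CLA, with a log2 difference from control of 0.35, and stood at -0.13 on t10,c12-CLA, both smaller than either SD between probe sets. Its difference of -0.48 between the isomers was smaller than the SD over all pairs, 0.497, and larger than that of the brighter pairs, 0.371. Nqo1, a quinone reductase and a common marker of NRF2 activity, gave 401.6 on t10,c12-CLA, 459.5 on c9,t11-CLA and 376.3 on control by one probe set and 406.8, 78.3 and 264.1 on the same arrays by the other. All 6 signals were below the floor, so no difference is given.

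Counted together, 0 of the 9 measured probe sets were 2-fold higher and 0 were 2-fold lower on t10,c12-CLA than on control, where 2.18% and 1.9% of all 5584 measured probe sets were. On c9,t11-CLA over control 2 were 2-fold higher, Mt1 and Mt2, against a background of 3.25%, and 0 were 2-fold lower, against 2.81%. Between the isomers 0 were 2-fold apart, where 3.47% of all measured probe sets were higher and 2.73% lower on t10,c12-CLA. The median log2 difference of the 9 was 0.04 for t10,c12-CLA over control, 0.15 for c9,t11-CLA over control and -0.48 for t10,c12-CLA over c9,t11-CLA. Over all measured probe sets these medians were -0.006, 0.033 and -0.054. With equal medians of the arrays both medians over control had the other sign, -0.05 for each. Between the isomers 8 of the 9 were lower on t10,c12-CLA, all but Sod1, where the median of all measured probe sets was -0.054. Of the 9 differences 5 were within the SD between probe sets of a gene over all pairs, against 3 with that of the brighter pairs. Bright probe sets as a class were also lower on t10,c12-CLA than on c9,t11-CLA. Among 270 with a geometric mean of at least 20000 the median was -0.307, with 74 above 0. Among 106 of at least 40000 it was -0.512, with 12 above 0. Of the 9, only Mt1, Mt2 and Sod1 reached a geometric mean of 20000, so this class does not cover the others. All 3 comparisons share arrays, so their values are not independent of each other.

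**Figure D3:**
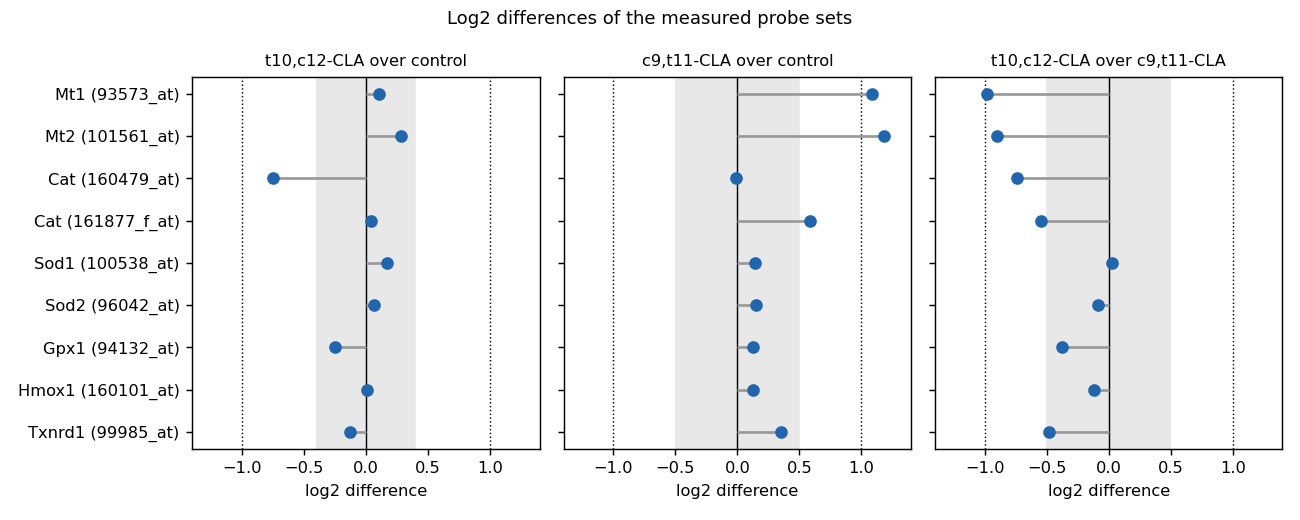
Log2 differences of the 9 measured probe sets for t10,c12-CLA over control, c9,t11-CLA over control and t10,c12-CLA over c9,t11-CLA, with dotted lines at 2-fold and a grey band of 1 SD between probe sets of a gene over all pairs. Mt1 and Mt2 pass 2-fold in c9,t11-CLA over control at 1.08 and 1.18, and Cat by its first probe set lies outside the band in t10,c12-CLA over control at -0.75.

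Genes whose pattern over the 3 arrays came nearest to Mt1 and Mt2 were named by the smallest Euclidean distance between centred log2 signals, among 4712 probe sets of other genes above the floor on every array. For Mt1 they were Slc38a5, an amino acid transporter, at a distance of 0.002, Penk, the enkephalin precursor, at 0.017, and Tdo2, the hepatic tryptophan dioxygenase, at 0.031. Tdo2 gave 53141 on t10,c12-CLA, 101775 on c9,t11-CLA and 48341 on control. For Mt2 they were Chchd10, a mitochondrial protein, at 0.017, Dgcr6 at 0.021 and Atf6b, a membrane-bound transcription factor, at 0.032. Chchd10 gave 42784 on t10,c12-CLA, 78671 on c9,t11-CLA and 34731.5 on control. The signals of Penk on t10,c12-CLA and control and of Atf6b on control, at 547.7, 514.0 and 547.1, were just above the floor. With 3 points per gene a close match is easily reached.

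The other measured genes of zinc and copper handling were within 2-fold of control on both CLA arrays. The list of metallothionein relatives and zinc transporters had 7 measured probe sets in each comparison with control, with a median log2 difference of 0.14 on t10,c12-CLA and 0.15 on c9,t11-CLA. Slc39a4, a zinc importer, stood at 0.70 on t10,c12-CLA and at -0.07 on c9,t11-CLA, and its other probe set at -0.18 and -0.10. Slc30a5, a zinc exporter into the secretory pathway, stood at 0.92 on c9,t11-CLA and 0.14 on t10,c12-CLA. That probe set carries a suffix and gave 1395 on c9,t11-CLA and 736.1 on control, and the gene's other probe set was below the floor on all arrays. Slc30a1, the plasma membrane zinc exporter and a target of MTF1, gave 408.0 on t10,c12-CLA, 648.9 on c9,t11-CLA and 371.1 on control, above the floor on c9,t11-CLA and at least 1.32-fold higher there than on control. Mtf1 gave 694.7 on t10,c12-CLA, 659.1 on c9,t11-CLA and 424.4 on control, at least 1.42-fold and 1.34-fold higher on the CLA arrays. Mt3, known as the brain metallothionein, gave 4155 on t10,c12-CLA, 5604 on c9,t11-CLA and 4894 on control, and Mt4 was below the floor on all arrays. Among superoxide dismutase relatives and copper carriers, Sod3, the secreted enzyme, had the largest log2 difference on t10,c12-CLA, at 0.78, and Cox17, a mitochondrial copper chaperone, the smallest on c9,t11-CLA, at -0.82. Ccs, the copper chaperone of Sod1, stood on c9,t11-CLA at -0.32 by one probe set and 0.96 by another.

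Of the glutathione peroxidases other than Gpx1, 2 of 3 measured were higher on t10,c12-CLA than on control, 1 of them by 2-fold, where the background was 2.18%. A floor at the 75th percentile left 0 past 2-fold. Gpx3, the plasma form, gave 4491 on t10,c12-CLA, 1337 on c9,t11-CLA and 1433 on control, 3.13-fold higher on t10,c12-CLA than on control. Gpx4, which reduces lipid peroxides in membranes, gave 6014 on t10,c12-CLA, 2955.5 on c9,t11-CLA and 3942.5 on control, a log2 difference from control of 0.61 on t10,c12-CLA and -0.42 on c9,t11-CLA. Between the isomers both passed 2-fold, higher on t10,c12-CLA, with log2 differences of 1.75 for Gpx3 and 1.02 for Gpx4, and 1 of them did so after quantile normalization or with the higher floor. Gpx2, the gastrointestinal form, was an exception, with a log2 difference from control of -0.07 on t10,c12-CLA and 0.46 on c9,t11-CLA. In glutathione synthesis and recycling 0 of 8 measured probe sets were 2-fold apart in any comparison. Gsr, glutathione reductase, stood at 0.62 on t10,c12-CLA and 0.05 on c9,t11-CLA, and Gclm, a subunit of the rate-limiting enzyme of glutathione synthesis, at -0.43 and -0.00.

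Thioredoxin and peroxiredoxin genes had medians of -0.05 on t10,c12-CLA and -0.14 on c9,t11-CLA, over 13 measured probe sets each. Txn1, thioredoxin itself, gave 34221 on t10,c12-CLA, 37871 on c9,t11-CLA and 22391.5 on control, with log2 differences from control of 0.61 and 0.76 on the CLA arrays. Sesn1, a stress-induced regulator of growth signalling, was the one probe set of the list at least 2-fold apart, at -1.20 on c9,t11-CLA over control and 1.06 on t10,c12-CLA over c9,t11-CLA. Its c9,t11-CLA signal of 522.7 was just above the floor. Srxn1, which repairs oxidised peroxiredoxins, disagreed between probe sets on t10,c12-CLA, at 0.71 and -0.56.

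Around haem and iron, Hamp, the iron hormone hepcidin, gave 6504 on t10,c12-CLA, 18095 on c9,t11-CLA and 14876 on control. It was 2.29-fold lower on t10,c12-CLA than on control, a log2 difference of -1.19. Hpx, the plasma haem carrier, had a log2 difference of 1.03 on c9,t11-CLA over control by one probe set and 0.23 by another. Alas1, which starts haem synthesis, stood at 0.00 on t10,c12-CLA and 0.07 on c9,t11-CLA, and the iron store subunit Fth1 at 0.21 and -0.02 by one probe set and at -0.18 and 0.65 by another. Hmox2, the constitutive haem oxygenase, stood at -0.50 on t10,c12-CLA and -0.37 on c9,t11-CLA.

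Most of the listed NRF2 target enzymes outside the 10 genes lay above control on t10,c12-CLA and below it on c9,t11-CLA. The counts hold for the listed enzymes only. On t10,c12-CLA 9 of 10 measured probe sets were above control, with a median log2 difference of 0.50, and 0 were 2-fold higher. On c9,t11-CLA 8 of 9 were below control, with a median of -0.39, and 1 was 2-fold lower, Me1, a count that was 2 with equal medians of the arrays and 0 with the higher floor. Over all measured probe sets the medians over control were -0.006 on t10,c12-CLA and 0.033 on c9,t11-CLA. Between the isomers the median was 0.72 over 9 probe sets, and 4 had at least a 2-fold higher signal on t10,c12-CLA, where the background was 3.47%. A floor at the 75th percentile left 2. These were Me1 at 2.01, Aox1, aldehyde oxidase, at 1.35, Tkt, transketolase, at 1.21, and Pgd at 1.13. Me1, the malic enzyme, and Pgd supply NADPH, also for fatty acid synthesis, and Tkt belongs to the pentose phosphate pathway. Ephx1, the microsomal epoxide hydrolase, stood at -0.00 on t10,c12-CLA and -0.69 on c9,t11-CLA. Akr1b8 was above control on both CLA arrays, at 0.72 on t10,c12-CLA and 0.76 on c9,t11-CLA. Gsta4, a glutathione transferase for lipid aldehydes, gave 1036 on t10,c12-CLA, 111.0 on c9,t11-CLA and 702.2 on control, a ratio of at least 2.11-fold for t10,c12-CLA over c9,t11-CLA. The direction of the medians held with equal medians of the arrays and after quantile normalization. NRF2 targets read with other lists did not share a single direction. On t10,c12-CLA over control Gclm stood at -0.43, Gclc at -0.09, Gsr at 0.62 and Txn1 at 0.61. On c9,t11-CLA over control they stood at -0.00, -0.29, 0.05 and 0.76. Srxn1 stood at 0.71 and -0.56 by its probe sets on t10,c12-CLA, and at -0.01 and 0.18 on c9,t11-CLA.

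Nfe2l2 gave 2505 on t10,c12-CLA, 3194 on c9,t11-CLA and 2337 on control. Its log2 difference from control was 0.10 on t10,c12-CLA and 0.45 on c9,t11-CLA. The latter was smaller than the SD between probe sets over all pairs, 0.493, and larger than that of the brighter pairs, 0.39. On c9,t11-CLA its sign was opposite to that of the median of the listed target enzymes, and whether they are related was not tested. Keap1, the inhibitor of NRF2, was below the floor on all arrays. Nfe2l1, a related factor, was 3.02-fold higher on t10,c12-CLA than on control by one probe set, but stood at 0.39 by the other. Bach1, a repressor of Hmox1, had log2 differences on t10,c12-CLA over control of 1.02 by one probe set and -0.19 by the other. Peroxide-producing oxidases were within 2-fold in all comparisons, with Pipox, a peroxisomal oxidase, at -0.70 on t10,c12-CLA and Cyba, a subunit of the phagocyte oxidase, at -0.77 by one probe set and -0.19 by another on c9,t11-CLA.

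**Figure D4:**
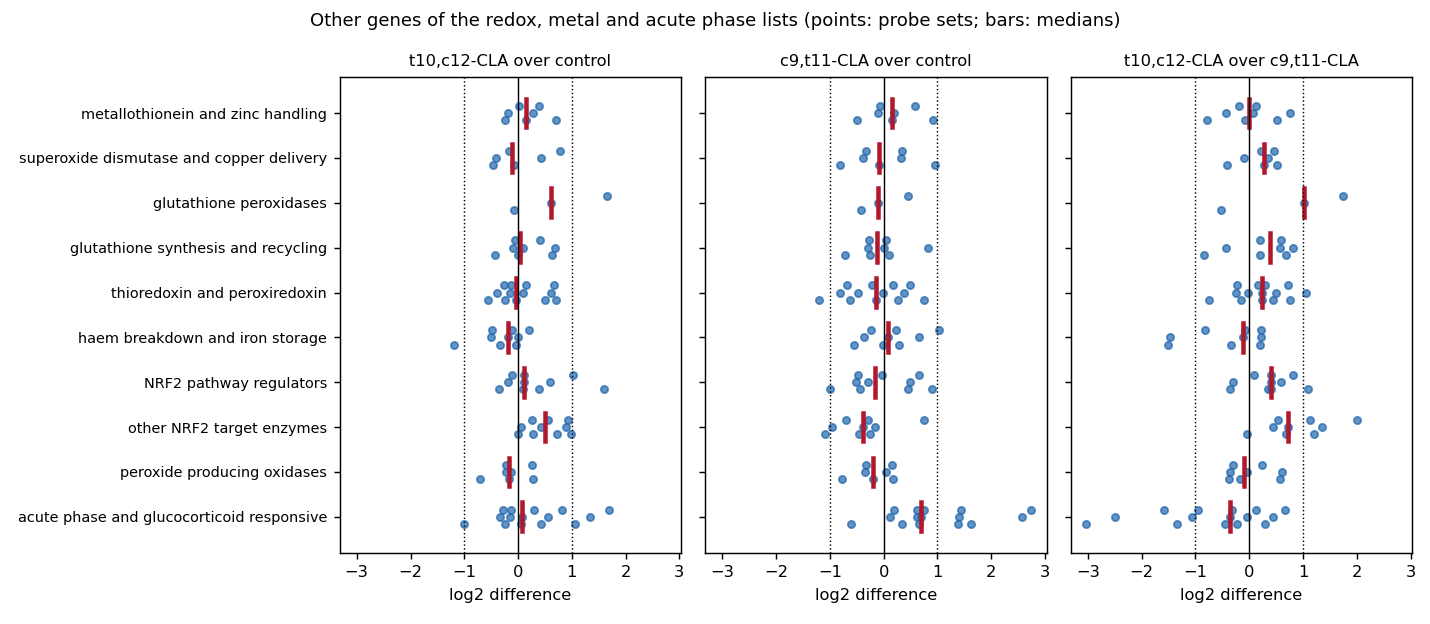
Log2 differences of the measured probe sets of 10 gene lists, which hold none of the 10 genes described, for t10,c12-CLA over control, c9,t11-CLA over control and t10,c12-CLA over c9,t11-CLA, with red bars at the medians and dotted lines at 2-fold. The medians of the other NRF2 target enzymes lie at 0.50 on t10,c12-CLA over control and -0.39 on c9,t11-CLA over control, and the acute phase and glucocorticoid list at 0.08 and 0.69.

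Genes known to share inducers with the metallothioneins, those of the acute phase and of glucocorticoids, were higher on c9,t11-CLA in 14 of 15 measured probe sets. Their median log2 difference from control was 0.69, where that of all measured probe sets was 0.033. Among all probe sets with a geometric mean of at least 20000, 175 of 280 were higher, and 92 of 107 among those of at least 40000. In the list 6 were at least 2-fold higher, against a background of 3.25% over all measured probe sets and 7.14% among those of at least 20000. On t10,c12-CLA the median was 0.08 with 3 at least 2-fold higher, against a background of 2.18%. After quantile normalization the median on c9,t11-CLA was 0.72, with 6 again at least 2-fold higher. Examples on c9,t11-CLA over control were Hp, haptoglobin, at 2.74, and Apcs, serum amyloid P, at 1.44. Fkbp5, a glucocorticoid-induced chaperone partner, stood at 0.75, whereas Per1 stood at 0.12 and Sgk1 at -0.60. Other genes of the list were past 2-fold on both CLA arrays, unlike Mt1 and Mt2. Orm2 stood at 1.41 on c9,t11-CLA and 1.69 on t10,c12-CLA. Lcn2 stood at 1.39 and 1.34 by one probe set and at 0.65 and 0.42 by another, in the same order. Summed signals of this list were 203610 on t10,c12-CLA, 408048 on c9,t11-CLA and 178653 on control. Mt1 and Mt2 had this order, and so did the sums of the hepatocyte markers given below. Bright probe sets weigh most in such a sum, among them 1 of Saa2 at 108255 and Hp at 64189 on c9,t11-CLA. The part of such induction in the metallothionein signals was not tested.

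Markers of liver cell types were read beside these values. The 9 hepatocyte markers on the array were all above the floor on every array, which fits the liver label. Their summed signals were 186846 on t10,c12-CLA, 345600 on c9,t11-CLA and 177053 on control. Alb, at 101163, and Cps1, at 89997, weighed most in the c9,t11-CLA sum. On c9,t11-CLA over control 7 were higher and 2 lower, from 3.74 for Apoa1 to -0.94 for Ttr. Markers of macrophages, which are rich in Hmox1, had 12 of 13 genes measured on t10,c12-CLA over control, a median log2 difference of 0.27 there and -0.13 on c9,t11-CLA over control, and summed signals of 127198, 83413 and 98646 on t10,c12-CLA, c9,t11-CLA and control. Erythroid markers, from cells rich in catalase and peroxiredoxin, had 3 of 5 genes measured and medians of 0.08 on t10,c12-CLA and -0.05 on c9,t11-CLA, with summed signals of 53286, 46232.5 and 46684 in the same order. Stellate and endothelial markers had a median of 0.80 over 7 probe sets on t10,c12-CLA over control, which was -0.10 with the floor at the 75th percentile, with summed signals of 18634, 11875 and 11646, and the 2 measured neutrophil markers one of -0.39, with 2863, 4683 and 2963. No marker was at 0 on any array, though several were below the floor on all. These were Marco, of Kupffer cells, Epb42 and Slc4a1, of red cells, and Mpo, Ngp and Cxcr2, of neutrophils. After quantile normalization the hepatocyte median on c9,t11-CLA over control was 0.29, against 0.66 as deposited. In a whole-liver sample, fewer cells of a type and less RNA per cell cannot be told apart, and the part of cell makeup in the differences above was not tested.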

How the data were processed

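Liver RNA of 3 samples was measured on Affymetrix mouse arrays, 1 per diet, from 8 µg of total RNA per the labels. The deposited values are MAS5 intensities, as the submitters' processing notes name them, with no version given there. Their 2%-trimmed mean was 1501 on every array, a sign of scaling before deposit. Detection calls were not used here.

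The table held 12488 probe sets, including 66 array controls, which were left out. Symbols came from the platform annotation, updated through a RefSeq table of GRCm38.p6, which held the gene identifier of 10817 among the 10833 probe sets with a single symbol. A further 396 had several symbols and 1193 none. Probe sets were kept separately. The log2 difference was computed without a pseudocount, above a floor at the 50th percentile of all signals, with a 2-fold size for counting. Where 1 array was above the floor, the ratio to the floor is given as at least N-fold. The number of arrays limits the precision.

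The 10 genes and the 15 lists, with 164 genes, were chosen with earlier results of these data known. All probe sets of the 10 genes are named. From each list, genes at least 2-fold apart or with the largest or smallest difference were eligible, up to 4 a list and comparison, and those named are a selection. Further list members, and the brightness limits, were picked with the values in view. The patterns nearest to Mt1 and Mt2 were the 3 smallest distances each. Alternatives were equal medians, quantile normalization, floors at the 25th and 75th percentile, a pseudocount of 50, leaving out probe sets with a suffix (_f, _g, _i, _r, _s), and the mean over probe sets of a gene. Python 3.11.15, numpy 2.4.6, pandas 2.3.3 and matplotlib 3.10.9 were used.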

Additional observations from a re-analysis of the deposited data

How the results depend on the processing

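The number of metallothionein and antioxidant probe sets at least 2-fold higher on c9,t11-CLA than on control was 2 as reported, and 0 with equal medians of the arrays and 0 after quantile normalization, where Mt1 stood at 0.43 and Mt2 at 0.77 on the log2 scale. Between the isomers quantile normalization gave log2 differences of -0.33 for Mt1 and -0.35 for Mt2. The other counts and medians of the 9 probe sets stayed within 1.5 times the reported count or within 1 SD between probe sets of a gene under all 7 alternatives. Of 186 recomputed differences of single probe sets 183 stayed within that SD, and 3 moved by more, all of Mt1 or Mt2 after quantile normalization. No difference of 2-fold or more changed sign. Of 312 recomputed list medians 3 moved by more than the SD, those of the glutathione peroxidases with the lower floor, at 0.46 on c9,t11-CLA over control and 0.45 on t10,c12-CLA over c9,t11-CLA, and of the stellate and endothelial markers with the higher floor, at -0.10 on t10,c12-CLA over control. Of 624 recomputed list counts 50 moved by more than 1.5 times. No paired analysis was possible because each diet had 1 array. Signals near the floor, among them Nqo1, could not be compared.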
